A study of Mus musculus with 10 samples.

Results

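Peritoneal dialysis (PD) fluid was set against phosphate-buffered saline (PBS) in the peritoneum of mice that carry intact Mr1, across all genes of an RNA-seq count table. The comparison took the 3 libraries labelled Mr1+/+ with PD fluid and the 3 labelled Mr1+/+ with PBS, 6 of the 10 libraries of the series. MR1, the protein of Mr1, displays vitamin B metabolites of microbes and is what mucosal-associated invariant T (MAIT) cells recognise. Male Mr1+/+ C57BL/6 mice were injected into the peritoneal cavity over 6 weeks, either with PD fluid at 4.25% or with PBS at an equal volume. The remaining 4 libraries were Mr1-/- mice of the same sex and strain, 2 with PBS and 2 with PD fluid over the same 6 weeks. They entered the fit to help estimate the spread between samples and are compared at the end. The sources used here do not give the age of the mice, the number of injections or whether animals were pooled. No label ties libraries to animals either, and the p-values therefore measure the spread between these samples alone, which may be technical.

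The peritoneum is a thin sheet of mesothelial cells over a connective tissue layer with fibroblasts, vessels, immune cells and nearby fat. In peritoneal dialysis it serves as the exchange membrane, and the fluid, commonly a glucose solution of high osmolarity, draws water and solutes across it. Long exposure is known to thicken the submesothelial collagen layer, to add vessels and to damage the mesothelium, with TGF-beta and VEGF among the mediators most studied. Fat, matrix and immune cells of the sheet were read together here, and in such bulk tissue fewer cells of a type and less RNA per cell cannot be told apart.

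Libraries held 14145635 to 16335799 counts. For Mr1+/+ PBS, replicates 1 and 2 had a chi-square per gene of 2.23, where 1 is what Poisson noise alone gives, against 18.6 to 118 for the 6 pairs of other libraries within groups. They were therefore summed and counted as 1 sample, as were both Mr1-/- PD fluid libraries (chi-square per gene 1.74). This left 2 samples of Mr1+/+ PBS against 3 of Mr1+/+ PD fluid. Mesothelial markers were present in every Mr1+/+ library, with Upk3b at 78.5, 79.9 and 36.0 CPM (counts scaled to a common library size) in PBS and 184, 62.2 and 60.1 CPM in PD fluid replicates 1, 2 and 3. Replicate 3 of Mr1+/+ PBS stood apart from all other samples on the first principal component (72.0% of the variance). It carried pancreatic and intestinal transcripts: the pancreatic lipase Pnlip was at 97.7, 93.1 and 5021 CPM and the intestinal mucin Muc2 at 1.63, 1.39 and 663 CPM in the 3 PBS libraries. PD fluid libraries had 29.7, 585 and 742 CPM of Pnlip and 1.05, 1.21 and 1.23 CPM of Muc2. Counts of list members without that library are therefore given where they differ by more than 1.5 times, and named genes that do not pass without it are marked. Without it Mr1+/+ PBS was 1 sample, with no spread of its own. Calls gained or kept in that fit therefore rest on the spread within the other groups.

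Of 15385 genes tested with edgeR's quasi-likelihood test, 1306 rose (8.49%) and 980 fell (6.37%) after PD fluid at a Benjamini-Hochberg adjusted p under 0.05, the threshold for "rose" and "fell" throughout. The shares of 8.49% and 6.37% are the background for every list count below. The median log2 fold change was 1.09 among the rises and -0.86 among the falls, and 742 rises and 322 falls were over 2-fold. The lowest adjusted p was 0.0124, and 386 genes had one under 0.015. The unadjusted p was under 0.05 for 5253 genes (34.1%). Libraries of the treatments did not overlap for any of the 1306 rises and for 979 of the 980 falls. That describes genes called on these same libraries and adds no support to the calls. The share over all tested genes is not given here.

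The number of calls depended on which PD fluid library was left out. With PD fluid replicate 3 left out, no gene was called (3601 at an unadjusted p under 0.05), and without replicate 2 there were 252 rises and 87 falls. Without replicate 1 there were 1352 rises and 799 falls. Over the 1306 rises and 980 falls of the full fit, the median log2 fold changes without replicate 3 were 1.02 and -0.78, a description of genes chosen by that fit. PD fluid replicate 1 was the lowest of the 3 PD fluid libraries for 923 of the 1306 rises (70.7%) and for 37.0% of all tested genes. The fit without PBS replicate 3 held 1 Mr1+/+ PBS sample and took its spread from the other groups. Without PBS replicate 3 there were 1462 rises (9.70% of 15078 genes tested) and 1289 falls (8.55%), and 1816 genes were called with and without it.

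**Figure D1:**
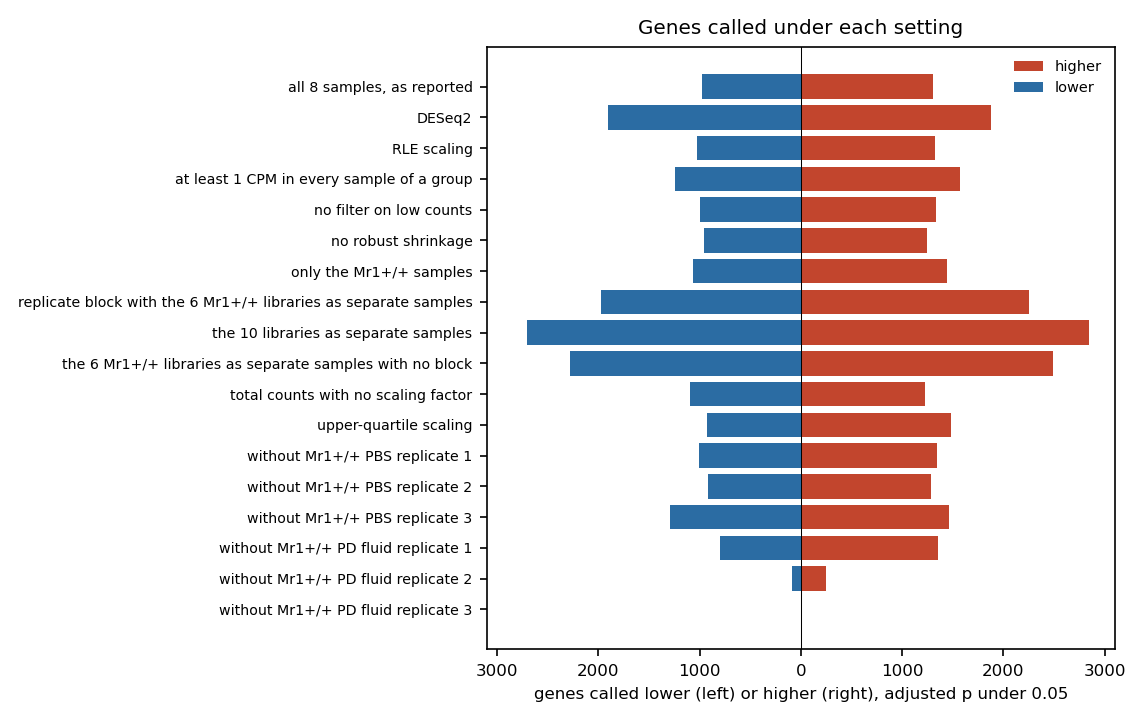
Number of genes called higher (red, right) or lower (blue, left) after PD fluid at an adjusted p under 0.05, under each setting (rows). The 1306 rises and 980 falls of the reported fit are the top row, and the bars vanish without PD fluid replicate 3.

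**Figure D2:**
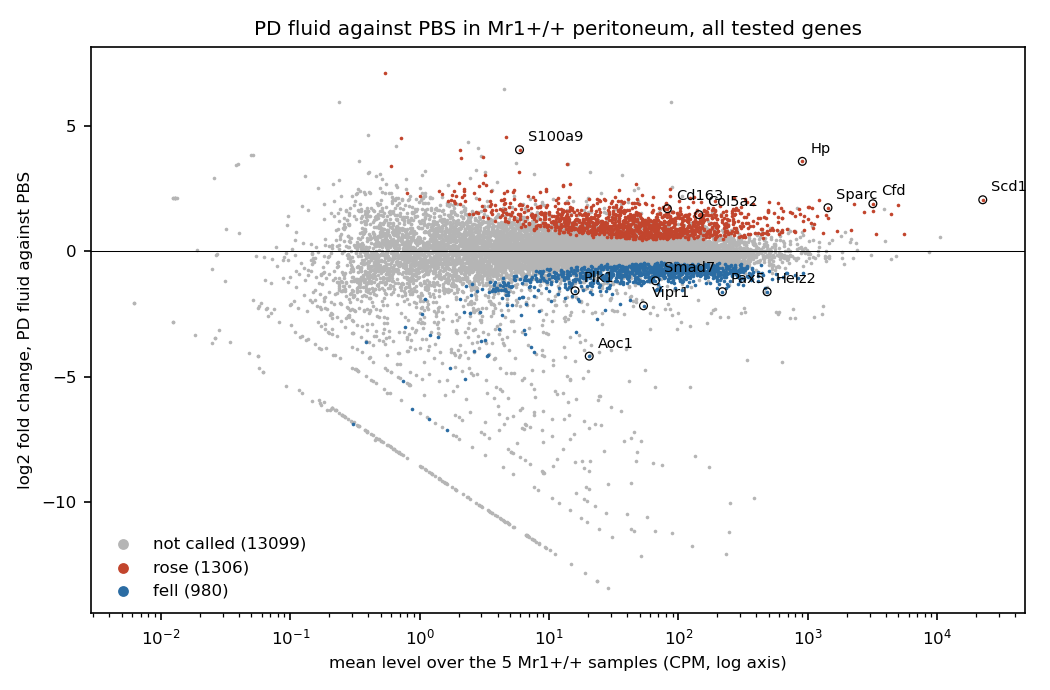
Log2 fold change after PD fluid (y axis) against the mean level over the 5 Mr1+/+ samples in CPM (x axis, log axis) for the 15385 tested genes, with the 1306 rises in red, the 980 falls in blue and the other genes in grey. Hp and Scd1 lie at the top right, and of the 293 genes with a log2 fold change under -5, 93.9% were at least 10 times higher in PBS replicate 3 than in any other Mr1+/+ library.

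Haptoglobin (Hp; GENCODE M21, mm10, chromosome 8, 109575128 to 109579172, minus strand), a haemoglobin-binding acute-phase protein, had the largest rise among genes that also passed without PBS replicate 3 and had a mean of at least 5 CPM. It was at 124, 104 and 125 CPM in the PBS libraries and 590.2, 1636 and 2068 CPM in the PD fluid libraries. Its libraries did not overlap between treatments, PD fluid replicate 1 was the lowest of its group, and the log2 fold change was 3.58 (SE 0.57). Orm1, another acute-phase plasma protein, was next (2.70), followed by the platelet chemokine Pf4 (2.63). Globin genes Hbb-bt (2.60) and Hba-a1 (2.45) were also among the 15 largest rises, and their near-identical copies make their counts uncertain. Unlike Hp, Hba-a1 was highest in PD fluid replicate 1, at 7.25, 5.99 and 12.2 CPM in the PBS libraries and 78.7, 32.8 and 41.7 CPM in the PD fluid libraries.

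Several of the other large rises encode secreted or matrix proteins. The procollagen C-proteinase enhancer Pcolce2 was at 8.25, 9.62 and 12.4 CPM in the PBS libraries and 43.2, 49.0 and 49.3 CPM in the PD fluid libraries, a log2 fold change of 2.15 (SE 0.29). All 3 PD fluid libraries of Pcolce2 stood close together and far above PBS. Versican (Vcan), a large matrix proteoglycan, rose by 2.13, the Wnt modulator Sfrp4 by 2.45, the integrin-related protein Itgbl1 by 2.37 and the terminal complement component C7 by 2.15 on the log2 scale. Lipid and retinoid genes made up most of the rest: the lipid droplet enzyme Pnpla3 (2.22), the malic enzyme Me1, which supplies NADPH (2.12), the paraoxonase Pon1 (2.17) and the retinol-binding protein Rbp7 (2.48). The myeloid chemokine Ccl9 (2.24) completed the 15.

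Among genes on none of the lists described here, the rises with the smallest p were as follows. Car5b, a mitochondrial carbonic anhydrase, was at 66.0, 75.9 and 70.4 CPM in the PBS libraries and 209, 244 and 247 CPM in the PD fluid libraries (log2 fold change 1.72, SE 0.14). Cytl1, a small secreted protein, was at 8.38, 7.75 and 7.65 CPM in the PBS libraries and 24.9, 23.3 and 24.9 CPM in the PD fluid libraries (1.63, SE 0.17). The matrix remodelling protein Mxra8 was at 50.6, 49.3 and 49.1 CPM in the PBS libraries and 105, 106 and 107 CPM in the PD fluid libraries (1.10, SE 0.12). For these 3 genes the libraries of each treatment lay close together, and no library stood apart. The choice by smallest p favours such genes, so this adds no support. The same holds for the genes below that were chosen by p. Cavin1, a coat protein of caveolae, rose by 1.57, the Hippo pathway coactivator Wwtr1 (TAZ) by 1.34, the LIM protein Fhl1 by 1.64, the p53 target Phlda3 by 1.53, Srpx by 1.58, Cib2 by 1.76 and Mmd by 1.96.

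**Figure D3:**
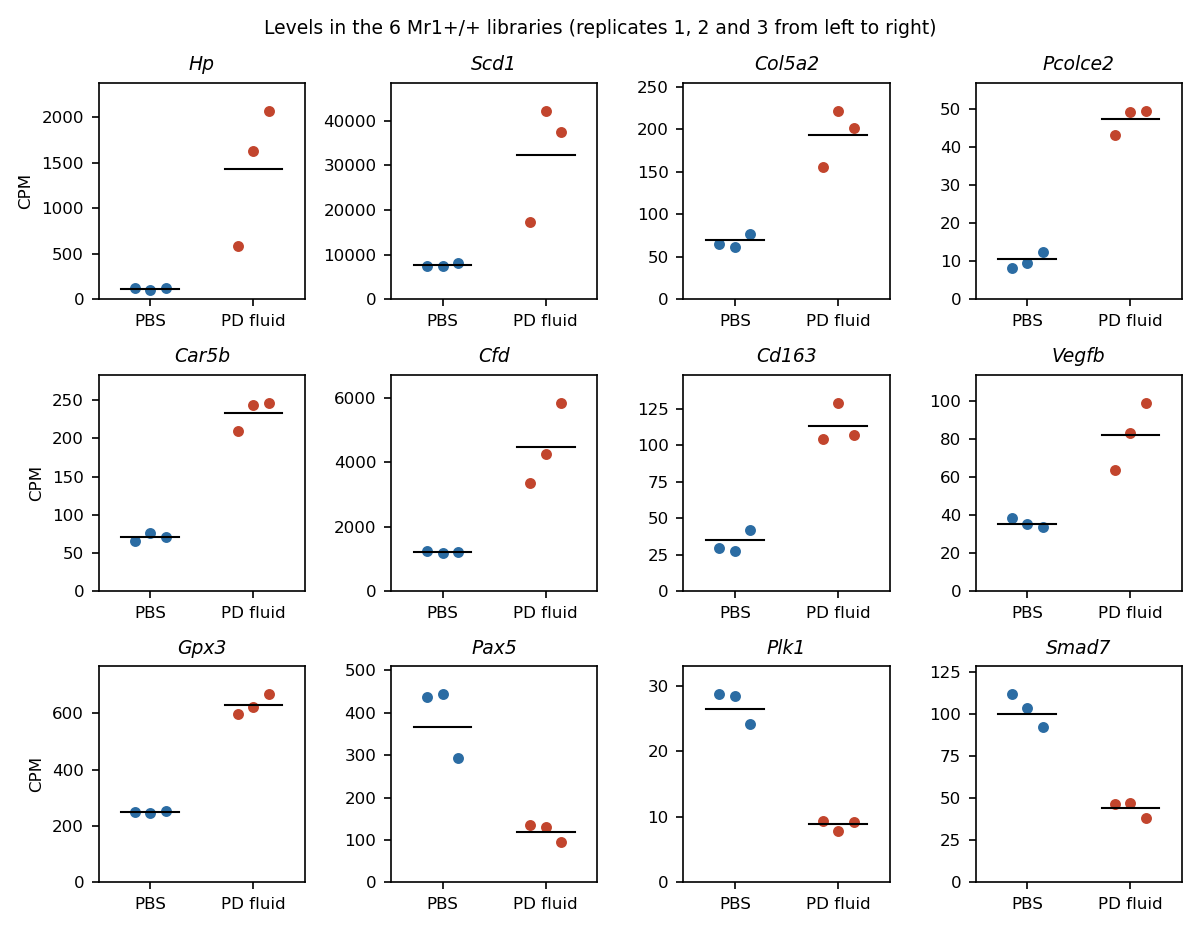
Levels (y axes, CPM, from 0) of 12 genes in the 3 PBS libraries (blue) and 3 PD fluid libraries (red) of Mr1+/+, replicates 1 to 3 from left to right, with the sample mean as a line. Groups do not overlap in any panel. PD fluid replicate 1 is the lowest of its group for every rise shown. Among the falls it is the highest of its group for Pax5 and Plk1 and lies between the others for Smad7.

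Fat cell genes rose as a group. Of 19 adipocyte genes tested, 16 rose and none fell, with a median log2 fold change of 1.58, against 8.49% of all tested genes that rose. Adipsin (Cfd), a fat-derived complement protease, was at 1233, 1190.0 and 1213 CPM in the PBS libraries and 3357, 4271 and 5859 CPM in the PD fluid libraries. The carbonic anhydrase Car3, abundant in fat cells, was at 1744, 1719.9 and 2230.5 CPM in the PBS libraries and 5645, 7412 and 8001 CPM in the PD fluid libraries. Every PD fluid library exceeded every PBS library for both, and replicate 3 was the highest. The beta-3 adrenergic receptor Adrb3 (1.65), the adipogenic transcription factor Cebpa (1.47) and the insulin-responsive glucose transporter Slc2a4 (1.26) also rose. Leptin (Lep), the fat cell hormone, was highest in PD fluid replicate 1, at 58.9, 57.0 and 109.9 CPM in the PBS libraries and 415, 158 and 169 CPM in the PD fluid libraries, and did not pass (adjusted p = 0.144). Summed over the list, adipocyte genes made up 7458 to 9587 CPM in the PBS libraries and 22302 to 31538 CPM in the PD fluid libraries. The markers Adipoq, Plin1 and Cidec moved with that sum, at log2 fold changes of 1.75, 1.47 and 1.41. The part of fat cell RNA in the other rises described here was not tested.

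Enzymes of fat synthesis followed. Of 20 genes for fatty acid and triglyceride synthesis, 12 rose and none fell (median 1.24). Dgat2, which makes triglyceride from diglyceride, was at 229, 223 and 226 CPM in the PBS libraries and 659, 661 and 698 CPM in the PD fluid libraries. Libraries lay close together within both groups, and the log2 fold change was 1.57 (SE 0.16). The lipogenic regulator Thrsp rose by 1.95, the acyltransferase Agpat2 by 1.43, the monoacylglycerol acyltransferase Mogat1 by 1.83 and the sterol and lipid transcription factor Srebf1 by 0.77 on the log2 scale. The stearoyl-CoA desaturase Scd1, chosen after its values were seen, took the most counts of any gene in every PD fluid library, at 17226, 42105 and 37516 CPM against 7417, 7471 and 8147 CPM in PBS. Its PD fluid replicate 1 was lower than the other two and still above all PBS libraries.

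Enzymes upstream of Scd1 were spread widely over the PD fluid libraries. Fatty acid synthase (Fasn) was at 1868, 1961 and 1454 CPM in the PBS libraries and 2623, 8078 and 5423 CPM in the PD fluid libraries, and acetyl-CoA carboxylase (Acaca) at 383, 404 and 293 CPM in the PBS libraries and 571, 1650.5 and 1208 CPM in the PD fluid libraries. Neither passed (adjusted p = 0.0951 and 0.0512): PD fluid replicate 1 was close to PBS, and replicates 2 and 3 were far above it. Of 18 cholesterol synthesis genes, 2 rose (11.1%, against 8.49% of all tested genes) and 1 fell (5.56%, against 6.37%), with a median of 0.25. Without PBS replicate 3, 4 rose. The sterol sensor Insig1 rose by 1.43 and the synthase Hmgcs1 by 0.98. Among 7 genes of heat-producing fat, 1, the cytochrome oxidase subunit Cox8b, rose (2.71), from under 1 CPM in PBS. It did not pass without PBS replicate 3.

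Genes of glucose and water handling mostly did not pass. Of 24 glucose transport and glycolysis genes, 2 rose (8.33%) and 1 fell (4.17%), against 5 and 0 without PBS replicate 3. Over all tested genes 8.49% rose and 6.37% fell. Slc2a4, also on the adipocyte list, and Pdk4, the kinase that restrains pyruvate oxidation (1.26), rose. The widespread glucose transporter Slc2a1 was at 45.9, 40.6 and 55.5 CPM in the PBS libraries and 31.7, 25.7 and 31.3 CPM in the PD fluid libraries and fell by 0.74. Without PBS replicate 3 it was -0.55 and not called. Lactate dehydrogenase A (Ldha) was at 491, 480.4 and 522 CPM in the PBS libraries and 547, 915 and 1068 CPM in the PD fluid libraries and did not pass (adjusted p = 0.0967). On the osmotic stress and water channel list 1 of 16 rose (6.25%), the aquaglyceroporin Aqp7 (1.58), which is also on the adipocyte list. Without PBS replicate 3, 2 rose. The water channel Aqp1 was at 305, 299.7 and 324 CPM in the PBS libraries and 397, 632 and 567 CPM in the PD fluid libraries (log2 fold change 0.76, SE 0.24, adjusted p = 0.0679). Nfat5, the tonicity-responsive transcription factor, was at -0.45 and did not pass.

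**Figure D4:**
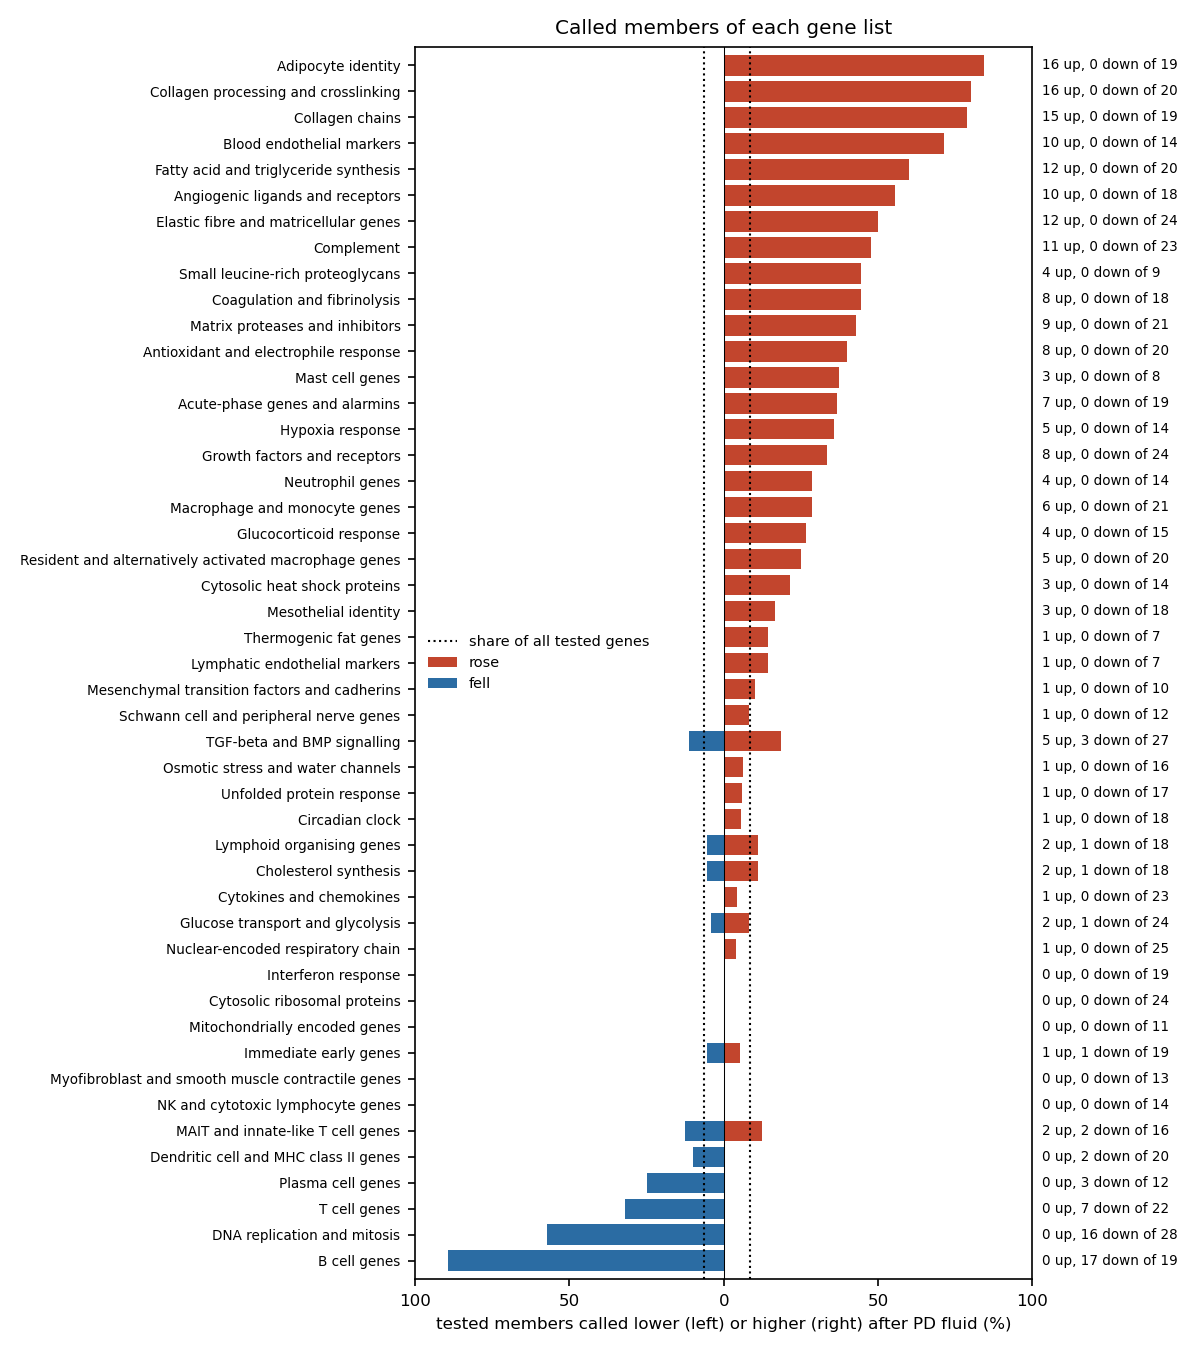
Share of the tested members of each of 47 gene lists that rose (red, right) or fell (blue, left), in percent, with the counts at the right. Dotted lines mark the shares of all tested genes, 8.49% higher and 6.37% lower. Adipocyte, collagen and vessel lists reach furthest right and the B cell and replication lists furthest left.

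Collagen genes rose across types. Of 19 chains tested, 15 rose and none fell, with a median log2 fold change of 1.29. Col1a1, the main chain of the fibrillar type I collagen (chromosome 11, 94936224 to 94953042, plus strand), was at 204, 212 and 229 CPM in the PBS libraries and 413, 621 and 599.7 CPM in the PD fluid libraries. Its partner chain Col1a2 was at 323, 313 and 351 CPM in the PBS libraries and 634, 931 and 934 CPM in the PD fluid libraries. Both were lowest in replicate 1 within PD fluid and separated from PBS, with log2 fold changes of 1.32 (SE 0.22) and 1.32 (SE 0.21). The chains that nucleate fibrils, Col5a1 (1.46) and Col5a2 (1.46), the microfibril chain Col6a1 (1.13) and Col16a1 (0.98) rose too. Not all chains did. Col12a1, which binds along fibrils, was at 85.9, 84.4 and 93.4 CPM in the PBS libraries and 74.9, 94.1 and 63.0 CPM in the PD fluid libraries, with overlapping libraries, and Col6a3 (0.92, SE 0.28) did not pass.

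The enzymes that mature and crosslink collagen rose with the chains, 16 of 20 with none lower (median 1.09). Lysyl oxidase (Lox), which starts crosslinks, was at 7.07, 10.7 and 15.7 CPM in the PBS libraries and 43.2, 49.0 and 52.8 CPM in the PD fluid libraries. All 3 PD fluid libraries were at least 2-fold above the highest PBS library, and the log2 fold change was 1.98 (SE 0.34). Loxl2 of the same family rose by 1.11, the prolyl hydroxylase P4ha2 by 1.13 and the C-proteinase enhancer Pcolce by 1.21. Loxl3 (0.41) and the procollagen protease Adamts14 (-0.33) did not pass.

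Of 9 small leucine-rich proteoglycans, which coat and space collagen fibrils, 4 rose. Decorin (Dcn) was highest in PD fluid replicate 1, at 352, 356 and 443 CPM in the PBS libraries and 1365, 863 and 946 CPM in the PD fluid libraries, unlike the collagen chains. Lumican (Lum) was at 24.5, 24.3 and 45.3 CPM in the PBS libraries and 107, 115 and 129 CPM in the PD fluid libraries, with a log2 fold change of 1.76 (SE 0.29). Biglycan (Bgn, 0.76) and the fibril-anchoring Prelp (0.64; 0.60 and not called without PBS replicate 3) rose.

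On the list of elastic fibre and matricellular genes 12 of 24 rose (median 1.01). Sparc, a collagen-binding matricellular protein, was at 511, 533 and 672 CPM in the PBS libraries and 1364, 2368 and 2226 CPM in the PD fluid libraries. The fibulins Fbln1 (1.54, SE 0.16), Fbln2 (1.45) and Fbln5 (1.51) and the microfibril protein Mfap5 (1.93) rose. Fibronectin (Fn1) was at 549.6, 573 and 711 CPM in the PBS libraries and 702, 1535 and 1011 CPM in the PD fluid libraries: replicate 1 of PD fluid was below the highest PBS library, and the gene did not pass (adjusted p = 0.155). Of 21 matrix proteases and inhibitors 9 rose (median 1.22). Macrophage elastase Mmp12 was at 0.125, 0.484 and 0.421 CPM in the PBS libraries and 1.92, 5.43 and 7.39 CPM in the PD fluid libraries, which is low in every library. Mmp19 (1.74), the plasminogen activator Plat (1.22), the serpin Serpine2 (1.44) and the metalloproteinase inhibitor Timp2 (0.85) rose. The membrane protease Mmp14 (0.43) did not pass.

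Receptors and ligands of growth factors were among the rises. Of 24 genes tested, 8 rose and none fell, and 12 rose without PBS replicate 3. Fgfr1, a receptor of fibroblast growth factors, was at 86.4, 84.4 and 95.8 CPM in the PBS libraries and 211, 229 and 214 CPM in the PD fluid libraries (log2 fold change 1.27, SE 0.14). Its ligand Fgf2 (1.11), the platelet-derived ligand Pdgfc (1.23), the fibroblast receptor Pdgfra (0.71) and the IGF-binding protein Igfbp4 (0.85) rose. Igfbp5 (0.66, adjusted p = 0.0509) and Igfbp6 (1.24) did not pass.

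In the TGF-beta and BMP list, 5 of 27 genes rose (18.5%, against 8.49% of all tested genes) and 3 fell (11.1%, against 6.37%). Without PBS replicate 3, 8 rose and 3 fell. Tgfb1, the ligand most studied in fibrosis, was at 278, 279 and 183 CPM in the PBS libraries and 191, 193 and 206 CPM in the PD fluid libraries, with overlapping libraries (log2 fold change -0.23, SE 0.19, adjusted p = 0.406). Tgfb3, a ligand of the same family, was at 16.9, 20.3 and 26.6 CPM in the PBS libraries and 47.0, 54.1 and 61.2 CPM in the PD fluid libraries and rose by 1.26. The latent complex protein Ltbp3 (1.30), the endothelial receptor Acvrl1 (0.80) and the ligands Bmp6 (1.07) and Inhbb (1.17) also rose. The falls were all in antagonists of these pathways. The inhibitory Smad7 was at 112, 103 and 92.3 CPM in the PBS libraries and 46.7, 47.2 and 38.5 CPM in the PD fluid libraries, the corepressor Tgif1 at 55.0, 56.3 and 50.5 CPM in the PBS libraries and 28.8, 31.1 and 30.4 CPM in the PD fluid libraries and the secreted BMP antagonist Grem1 at 49.7, 54.6 and 43.0 CPM in the PBS libraries and 32.4, 26.7 and 26.5 CPM in the PD fluid libraries. Every PD fluid library was below every PBS library for these 3 genes, and their log2 fold changes were -1.18 (SE 0.14), -0.82 (SE 0.14) and -0.74 (SE 0.16). The receptor Tgfbr2 (-0.21) did not pass.

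Vessel genes rose among ligands, receptors and endothelial markers alike. Of 18 angiogenic ligands and receptors 10 rose (median 1.03), and of 14 blood endothelial markers 10 rose (median 0.99), with none lower. Vegfa, the main vessel growth factor, was at 61.5, 58.6 and 90.3 CPM in the PBS libraries and 115, 158 and 155 CPM in the PD fluid libraries (log2 fold change 0.93, SE 0.23, adjusted p = 0.0354). Vegfb was at 38.6, 35.3 and 33.7 CPM in the PBS libraries and 63.9, 83.3 and 99.1 CPM in the PD fluid libraries (1.22, SE 0.20). Ligands of lymphatic vessels, Vegfc (1.18) and Vegfd (1.45), rose as well. The endothelial receptor Tie1 was at 72.4, 70.0 and 87.2 CPM in the PBS libraries and 142, 174 and 171 CPM in the PD fluid libraries, with no overlap. Esam (1.41), Emcn (1.49), the transcription factor Sox17 (1.24), the fenestral protein Plvap (0.67) and Notch4 (1.10) rose. The junction marker Pecam1 (0.45, adjusted p = 0.0711), the VEGF receptor Kdr (0.34) and von Willebrand factor (Vwf, 1.10) were not called. On the lymphatic list 1 of 7 rose, podoplanin (Pdpn, 0.78), which mesothelium also carries. Without PBS replicate 3 it did not pass, and 2 others, one of them the hyaluronan receptor Lyve1 (0.81), did.

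Of 18 mesothelial genes tested, 3 rose (16.7%, against 8.49% of all tested genes) and none fell, with a median of 0.79. The rises were Gas1 (1.51), the retinoic acid enzyme Aldh1a2 (0.78) and Pdpn. Mesothelin (Msln) was at 24.6, 20.3 and 10.5 CPM in the PBS libraries and 51.9, 13.1 and 16.7 CPM in the PD fluid libraries, and the mesothelial transcription factor Wt1 at 11.2, 12.5 and 6.6 CPM in the PBS libraries and 41.4, 21.6 and 19.0 CPM in the PD fluid libraries. PD fluid replicate 1 was the highest library for Msln, Wt1 and Upk3b, and none of the 3 passed (adjusted p = 0.562, 0.158 and 0.494). Among 10 mesenchymal transition factors and cadherins, 1 rose, the intermediate filament vimentin (Vim), at 640.0, 641 and 585 CPM in the PBS libraries and 1179, 1345 and 1534 CPM in the PD fluid libraries. Snai1, a repressor of epithelial genes, was at 2.75, 3.39 and 2.88 CPM and 3.22, 5.57 and 5.83 CPM and did not pass. The epithelial cadherin Cdh1 was at 3.002, 4.18 and 256 CPM in PBS and 5.95, 4.16 and 4.41 CPM in PD fluid, so its log2 fold change of -4.74 came from PBS replicate 3, and it was 0.43 without that library. None of 13 contractile genes of myofibroblasts and smooth muscle rose or fell. Acta2, smooth muscle actin, was at 483, 487 and 448 CPM in the PBS libraries and 669.7, 898 and 983 CPM in the PD fluid libraries and did not pass (adjusted p = 0.179).

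Plasma proteins of inflammation rose together with complement and clotting genes. Of 19 acute-phase genes and alarmins 7 rose (median 1.90), Hp and Orm1 among them. Serpina3c, a serine protease inhibitor of a multi-copy family with uncertain counts, was at 38.6, 36.1 and 29.3 CPM in the PBS libraries and 91.1, 90.1 and 96.4 CPM in the PD fluid libraries (1.47, SE 0.26). Serum amyloid Saa3 was at 0.313, 0.787 and 4.63 CPM in the PBS libraries and 0.744, 169 and 260.2 CPM in the PD fluid libraries: replicate 1 of PD fluid was at the PBS level and replicates 2 and 3 were far above it, and it did not pass. Of 23 complement genes 11 rose and none fell. The classical pathway proteases C1s1 (0.99, SE 0.14) and C1ra (0.95), their inhibitor Serping1 (0.94) and the anaphylatoxin receptor C5ar1 (2.04) rose. C1s1 was at 145, 141 and 144 CPM in the PBS libraries and 289, 292 and 273 CPM in the PD fluid libraries, with the PD fluid libraries within a narrow range. Clusterin (Clu), an extracellular chaperone, was at 0.17 and did not pass.

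Of 18 coagulation and fibrinolysis genes 8 rose (median 1.09). Tissue factor (F3), which starts clotting, was at 15.7, 16.7 and 19.2 CPM in the PBS libraries and 47.4, 43.5 and 48.6 CPM in the PD fluid libraries (1.39, SE 0.16). The anticoagulant protein S (Pros1, 1.07), the protein C receptor Procr (0.77), the plasminogen-binding Anxa2 (1.11) and Plat rose on the same list.

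Some myeloid genes rose. Of 21 macrophage and monocyte genes 6 rose and none fell, against 7 and 1 without PBS replicate 3. The haemoglobin scavenger receptor Cd163 was at 29.1, 27.7 and 41.8 CPM in the PBS libraries and 104, 129 and 107 CPM in the PD fluid libraries (1.69, SE 0.22). The mannose receptor Mrc1 was at 47.3, 47.2 and 84.6 CPM in the PBS libraries and 152, 155 and 147 CPM in the PD fluid libraries (1.20, SE 0.24), with PBS replicate 3 between the other PBS libraries and PD fluid. The monocyte chemokine receptor Ccr2 (1.53), the integrin Itgam (1.55) and the endotoxin co-receptor Cd14 (0.98) rose. The lysozyme Lyz2 (0.34) and the lineage receptor Csf1r (0.44) did not pass. Of 20 genes of resident and alternatively activated macrophages 5 rose: Ccl9, the lectin Clec10a (1.26), Chil3 (4.54), the transglutaminase F13a1 (2.49) and Vsig4 (3.04), the last 3 not past the threshold without PBS replicate 3. Without that library 1 gene of this list fell.

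Neutrophil and mast cell genes were low. Of 14 neutrophil genes 4 rose (Lcn2, Mmp9, S100a9 and Elane), and 2, Mmp9 and Elane, without PBS replicate 3. The alarmin subunit S100a9 was at 0.876, 0.726 and 0.281 CPM in the PBS libraries and 2.79, 10.1 and 15.6 CPM in the PD fluid libraries, and the gelatinase Mmp9 at 14.8, 13.7 and 15.1 CPM in the PBS libraries and 24.4, 51.4 and 50.5 CPM in the PD fluid libraries. The list summed to 53.2 to 69.5 CPM in PBS and 74.4 to 226 CPM in PD fluid, with PD fluid replicate 1 near PBS. Of 8 mast cell genes 3 rose, the chymase Mcpt4, the histamine-making Hdc and the transcription factor Gata2 (1.91, 1.76 and 1.14), and Hdc was not called without PBS replicate 3. The mast cell growth receptor Kit (-0.19) did not pass.

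Among 23 cytokines and chemokines 1 rose, the eosinophil chemokine Ccl11, at 7.38, 8.23 and 13.1 CPM in the PBS libraries and 29.3, 18.9 and 29.2 CPM in the PD fluid libraries (1.31, SE 0.29). Il6 was under 1 CPM in all 6 libraries and Ccl2 under 4 CPM, levels at which a change would be hard to detect. Neither passed (log2 fold changes 0.56 and 0.44, adjusted p = 0.67 and 0.522). The stromal chemokine Cxcl12, at 482, 490.2 and 351 CPM in the PBS libraries and 464, 447 and 426 CPM in the PD fluid libraries, overlapped between treatments.

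B cell genes fell as a block. Of 19 tested, 17 fell and none rose, with a median log2 fold change of -1.001, against 6.37% of all tested genes that fell. Pax5, the transcription factor that holds B cell identity (chromosome 4, 44524757 to 44710487, minus strand), was at 438, 444 and 293 CPM in the PBS libraries and 134, 129.8 and 95.0 CPM in the PD fluid libraries. The inhibitory receptor Cd22 was at 552, 567 and 340.3 CPM in the PBS libraries and 195, 193 and 159.9 CPM in the PD fluid libraries. PBS replicate 3 was the lowest PBS library for both genes, and all PD fluid libraries were lower still. Their log2 fold changes were -1.62 (SE 0.22) and -1.30 (SE 0.21). Fcrla (-1.08) and the low-affinity IgE receptor Fcer2a (-1.11) fell too. An exception was Ebf1, at 117, 118 and 95.7 CPM in the PBS libraries and 113, 130.1 and 113 CPM in the PD fluid libraries, a B lineage factor that fat and stromal cells also carry. Summed over the list, B cell genes were at 3584 to 5719 CPM in PBS and 2165 to 2417 CPM in PD fluid.

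Plasma cell genes split. Of 12 tested, 3 fell: the receptor Tnfrsf13b (-1.005), the kinase Pim2 (-0.83) and the secretory pathway gene Derl3 (-1.09). The immunoglobulin J chain (Jchain), which links secreted antibodies, was at 529.6, 519.8 and 387 CPM in the PBS libraries and 478, 396 and 493 CPM in the PD fluid libraries, with overlapping libraries, and Xbp1 was at 0.48 (adjusted p = 0.0574). Among 18 lymphoid organising genes 2 rose (11.1%, against 8.49% of all tested genes) and 1 fell (5.56%, against 6.37%). Without PBS replicate 3, 2 rose and 4 fell. The follicle-homing receptor Cxcr5 fell by 1.001, while Glycam1, a ligand on lymph node venules, was at 37.5, 38.7 and 40.9 CPM in the PBS libraries and 77.0, 75.7 and 97.3 CPM in the PD fluid libraries and rose by 1.08.

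Of 22 T cell genes 7 fell and none rose (median -0.74), and 15 fell without PBS replicate 3. The costimulatory receptor Cd28 was at 89.4, 93.0 and 68.0 CPM in the PBS libraries and 53.6, 38.6 and 36.0 CPM in the PD fluid libraries (-0.90, SE 0.21). The costimulatory receptor Cd27 (-0.94), the adhesion receptor Cd6 (-1.17) and the transcription factor Lef1 (-1.15) fell. Cd4 was at 301, 310.1 and 227 CPM in the PBS libraries and 189.8, 178 and 136 CPM in the PD fluid libraries (adjusted p = 0.052; -0.86 and called without PBS replicate 3). None of 14 NK and cytotoxic genes passed, and 3 fell without PBS replicate 3. Il2rb and Nkg7 were at -0.31 and -0.33. On the list for MAIT and other innate-like T cells 2 of 16 rose (12.5%, against 8.49% of all tested genes) and 2 fell (12.5%, against 6.37%). The transcription factor Maf (0.83) and Tmem176b (0.67) rose, and the chemokine receptor Ccr6 (-1.24) and Blk (-0.94) fell. Other immune cells carry these 4 genes as well, and Blk is on the B cell list. Mr1 itself was at 20.3, 21.8 and 24.8 CPM in the PBS libraries and 32.5, 29.9 and 30.1 CPM in the PD fluid libraries and did not pass (0.43, SE 0.18, adjusted p = 0.128).

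Most genes of antigen presentation did not pass. Of 20 dendritic cell and MHC class II genes 2 fell, H2-Ob (-1.20, SE 0.20) and H2-DMb2 (-0.98, SE 0.20), which act on peptide loading, and 4 fell and 1 rose without PBS replicate 3. The invariant chain Cd74, at 3751, 3688 and 2883 CPM in the PBS libraries and 3375, 2528 and 2907 CPM in the PD fluid libraries, overlapped between treatments. No gene of 19 on the interferon response list passed, and 3 fell without PBS replicate 3. Stat2, an interferon signal transducer, was at 254, 249 and 145 CPM in the PBS libraries and 127, 116 and 101 CPM in the PD fluid libraries: PBS replicate 3 lay near PD fluid (adjusted p = 0.126; -1.13 and called without it).

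**Figure D5:**
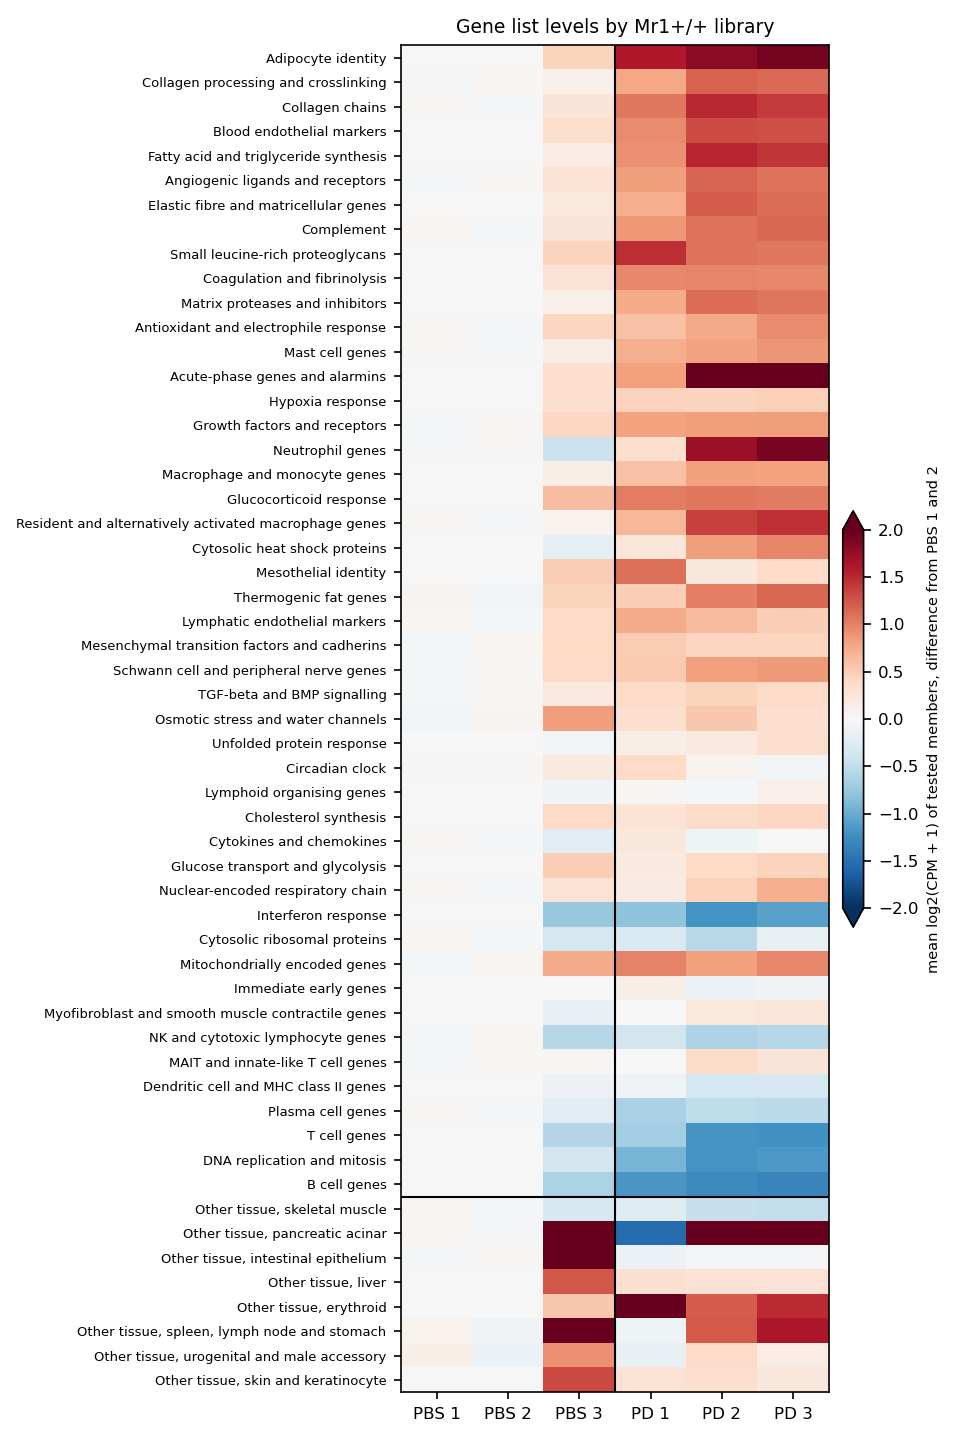
Mean log2(CPM + 1) of the tested members of each list (rows) in the 6 Mr1+/+ libraries (columns), as the difference from the mean of PBS replicates 1 and 2 (red higher, blue lower; the scale ends at -2 and 2). The lower block holds markers of other tissues, where PBS replicate 3 is high for pancreatic and intestinal genes and PD fluid replicate 1 for erythroid genes.

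Cell division genes fell. Of 28 genes of DNA replication and mitosis 16 fell and none rose (median -0.99). The mitotic kinase Plk1 (chromosome 7, 122159439 to 122169873, plus strand) was at 28.7, 28.5 and 24.2 CPM in the PBS libraries and 9.36, 7.92 and 9.27 CPM in the PD fluid libraries (-1.58, SE 0.22). Topoisomerase Top2a, which untangles replicated DNA, was at 80.2, 78.0 and 67.4 CPM in the PBS libraries and 39.4, 31.1 and 28.7 CPM in the PD fluid libraries (-1.15, SE 0.17). The cyclin Ccna2 (-1.23), the ribonucleotide reductase subunit Rrm2 (-0.99) and the G1 cyclin Ccne1 (-1.03) fell. Summed over the list, replication genes were at 886 to 1247 CPM in the PBS libraries and 645, 555 and 578 CPM in the PD fluid libraries. Replicate 1 was the PD fluid library nearest PBS in this sum. The helicase subunit Mcm6 (-0.64, adjusted p = 0.0596) and the sliding clamp Pcna, at 122, 117 and 87.2 CPM in the PBS libraries and 92.4, 81.0 and 95.1 CPM in the PD fluid libraries, did not pass. T cell genes summed to 2091 to 3266 CPM in PBS and 1327 to 1915 CPM in PD fluid, lower in the same libraries as the B cell sum given above, and the part of lymphocytes in this result was not tested.

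Because these members moved together, their promoters are shown. Promoters of cell cycle genes are known for CCAAT boxes, bound by NF-Y, and for the cell cycle homology region TTTGAA, bound by the DREAM complex and related factors. The 6 members below are those with the smallest p among the members that fell and have an entry in the RefSeq promoter table (GRCm38.p6). Each run gives the 150 bases before and the 30 bases from the gene's start, 5′ to 3′ on the gene's strand, and capitals mark CCAAT or TTTGAA on either strand (ATTGG and TTCAAA on the other).
Plk1 (chr7:122159285-122159464, plus strand): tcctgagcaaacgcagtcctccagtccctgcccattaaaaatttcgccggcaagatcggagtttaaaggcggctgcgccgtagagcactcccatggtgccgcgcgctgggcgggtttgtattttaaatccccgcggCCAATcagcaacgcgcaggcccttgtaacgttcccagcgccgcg
Top2a (chr11:99024160-99024339, minus strand): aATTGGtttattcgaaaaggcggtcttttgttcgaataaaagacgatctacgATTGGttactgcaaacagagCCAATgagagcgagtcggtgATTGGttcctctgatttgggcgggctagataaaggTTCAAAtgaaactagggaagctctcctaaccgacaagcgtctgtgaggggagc
Rrm2 (chr12:24708104-24708283, plus strand): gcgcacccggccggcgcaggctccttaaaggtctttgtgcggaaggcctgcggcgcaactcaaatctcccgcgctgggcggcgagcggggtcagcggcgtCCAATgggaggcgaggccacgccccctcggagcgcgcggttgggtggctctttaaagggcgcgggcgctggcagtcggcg
Ccne1 (chr7:38107461-38107640, minus strand): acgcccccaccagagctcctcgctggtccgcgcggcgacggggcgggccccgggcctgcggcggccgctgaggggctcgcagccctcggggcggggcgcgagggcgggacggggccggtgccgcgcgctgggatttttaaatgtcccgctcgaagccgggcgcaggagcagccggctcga
Bub1b (chr2:118598061-118598240, plus strand): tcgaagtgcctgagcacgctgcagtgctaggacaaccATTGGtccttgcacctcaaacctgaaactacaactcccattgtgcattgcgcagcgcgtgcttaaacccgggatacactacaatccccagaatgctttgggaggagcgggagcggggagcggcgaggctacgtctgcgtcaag
Cdc20 (chr4:118437314-118437493, minus strand): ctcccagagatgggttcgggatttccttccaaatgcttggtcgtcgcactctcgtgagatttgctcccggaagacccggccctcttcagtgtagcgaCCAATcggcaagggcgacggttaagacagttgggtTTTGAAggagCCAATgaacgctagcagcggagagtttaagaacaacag
Top2a showed 4 CCAAT boxes and Cdc20, the activator of the anaphase complex, 2, each with 1 TTTGAA. Plk1, Rrm2 and Bub1b, a spindle checkpoint kinase, showed 1 CCAAT each and no TTTGAA in this stretch, and Ccne1 neither. Over the whole table window of 300 bases, 11 of 12 windows of the members that fell held CCAAT and 8 held TTTGAA (12 of 16 members had an entry). Of all 32851 windows 37.4% held CCAAT and 17.9% TTTGAA. Members of the list that were not called held them in 9 and 4 of 12 windows. These matches describe letters only.

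Among the largest falls that also passed without PBS replicate 3, some genes were high in that library alone. The diamine oxidase Aoc1 was at 9.88, 10.9 and 84.0 CPM in the PBS libraries and 2.98, 2.95 and 1.81 CPM in the PD fluid libraries, and its log2 fold change was -4.18 with and -2.01 without PBS replicate 3. The amino acid transporter Slc6a19 (-2.39 and -1.77), the receptor Cubn (-2.56 and -1.77) and the desmosomal cadherin Dsc2 (-3.23 and -1.66) moved in the same way. Others fell as far without it. Ticrr, needed to fire replication origins, was at 15.0, 15.0 and 11.6 CPM in the PBS libraries and 4.84, 3.15 and 3.63 CPM in the PD fluid libraries (-1.78, SE 0.27), and the spindle protein Aspm fell by 1.85. The kinase Map3k9 was at 27.6, 31.5 and 22.3 CPM in the PBS libraries and 7.56, 9.996 and 5.25 CPM in the PD fluid libraries (-1.77, SE 0.27). Helz2, a nuclear receptor coactivator, was at 1064, 1086 and 550.3 CPM in the PBS libraries and 268, 331 and 196 CPM in the PD fluid libraries, with PBS replicate 3 between the groups. Cathepsin E (Ctse, -1.58), the nucleoside transporter Slc28a2b (-1.64), Rpgrip1 (-1.58) and the butyrophilin-like Btnl2 (-1.83) were the rest, with Pax5, Plk1 and Vipr1.

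Vipr1, the receptor of vasoactive intestinal peptide, had the smallest p among falls on none of the lists, at 78.9, 72.9 and 126 CPM in the PBS libraries and 25.9, 21.6 and 19.3 CPM in the PD fluid libraries (-2.18, SE 0.23; -1.77 without PBS replicate 3). Ezrin (Ezr), which ties the membrane to actin, was at 445, 433 and 417 CPM in the PBS libraries and 222, 205 and 187 CPM in the PD fluid libraries (-1.06, SE 0.14). The AMPK-related kinase Nuak2 was at 66.5, 59.6 and 75.1 CPM in the PBS libraries and 33.0, 33.7 and 33.5 CPM in the PD fluid libraries (-1.05, SE 0.13). Ezrin and Nuak2 fell to about the same level in all 3 PD fluid libraries. The protease-activated receptor F2rl1 (-1.45), Sfn (-1.17), Card6 (-1.45), the DNA-binding Arid3b (-1.22), the mitochondrial acetyl-CoA synthetase Acss1 (-0.96) and the calcium channel Cacna1i (-1.51) also fell.

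Antioxidant genes rose, 8 of 20 with none lower (median 0.61). The extracellular glutathione peroxidase Gpx3 was at 251, 245 and 254 CPM in the PBS libraries and 597, 623 and 668 CPM in the PD fluid libraries (1.33, SE 0.14). Extracellular superoxide dismutase (Sod3) was at 77.7, 75.2 and 80.7 CPM in the PBS libraries and 183, 223 and 233 CPM in the PD fluid libraries (1.44, SE 0.17). Catalase (Cat, 1.04), Gpx4, which reduces lipid peroxides (1.35), and Gpx1 (0.68) rose. Haem oxygenase (Hmox1), which breaks down haem, was at 45.3, 39.8 and 34.3 CPM in the PBS libraries and 59.6, 114 and 120.2 CPM in the PD fluid libraries and rose (1.35, SE 0.32, adjusted p = 0.0337; 1.20 and not called without PBS replicate 3). Erythroid genes summed to 17.97 to 36.2 CPM in PBS and 85.0 to 239.9 CPM in PD fluid, and PD fluid replicate 1, the highest of these, had the lowest Hmox1 of its group. The part of blood in the Hmox1 result was not tested.

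Of 14 hypoxia response genes 5 rose, and 3 without PBS replicate 3. The mitophagy receptor Bnip3 was at 15.1, 13.7 and 18.04 CPM in the PBS libraries and 43.6, 41.9 and 47.8 CPM in the PD fluid libraries (1.46, SE 0.23). The peptide adrenomedullin (Adm, 0.90), Ndrg1 (0.63), the oxygen sensor Egln1 (0.61) and the prolyl hydroxylase subunit P4ha1 (1.06) rose, the last 2 not past the threshold without that library. In the unfolded protein response 1 of 17 rose, the co-chaperone Dnajb9 (0.69), and the master chaperone Hspa5 was at 399.5, 384 and 365 CPM in the PBS libraries and 466, 504 and 585 CPM in the PD fluid libraries without passing (adjusted p = 0.092). Of 14 cytosolic heat shock genes 3 rose: the small heat shock proteins Cryab, at 18.7, 19.8 and 19.0 CPM in the PBS libraries and 49.4, 76.7 and 84.1 CPM in the PD fluid libraries, and Hspb1 (1.70), and the co-chaperone Bag3 (0.68; 0.71 and not called without PBS replicate 3). The constitutive chaperones Hspa8 (0.47) and Hsp90ab1 (0.35) did not pass, with PD fluid replicate 1 within the PBS range for both.

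Of 15 glucocorticoid-responsive genes 4 rose. Klf15, a metabolic transcription factor, was at 29.7, 29.7 and 45.0002 CPM in the PBS libraries and 88.8, 87.5 and 86.8 CPM in the PD fluid libraries (1.24, SE 0.19). Klf9 (0.97), Pdk4 and the lipase inhibitor Angptl4 (1.73) rose, and Fkbp5 (0.78), a known direct target of the receptor, did not pass. On the circadian clock list 1 of 18 rose, Nfil3 (1.35), and the list's median of 0.01 changed sign with the scaling. The clock output gene Tef was at 123, 127 and 121 CPM in the PBS libraries and 177, 83.9 and 81.2 CPM in the PD fluid libraries, so PD fluid replicate 1 lay above and replicates 2 and 3 below every PBS library. Among 19 immediate early genes Ier3 rose (1.01) and the antiproliferative Btg2 fell (-0.76), at 231, 236 and 185 CPM in the PBS libraries and 132, 119 and 119 CPM in the PD fluid libraries. Without PBS replicate 3 Ier3 did not pass, and 2 genes of the list rose and 2 fell.

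None of 24 cytosolic ribosomal protein genes passed (median -0.18). Of 25 nuclear genes of the respiratory chain 1 rose, Ndufa4 (1.09), and it did not pass without PBS replicate 3. None of 11 mitochondrially encoded genes passed, and 5 rose without PBS replicate 3, the PBS library with the most such reads. The oxidase subunit mt-Co1 was at 5141, 5293 and 11259 CPM in the PBS libraries and 10324, 12994 and 12902 CPM in the PD fluid libraries (adjusted p = 0.25; 1.21 and called without that library). Of 12 Schwann cell and nerve genes 1 rose, S100b (2.15; not called without PBS replicate 3), at under 5 CPM in all 6 libraries, against 3 without PBS replicate 3.

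Markers of neighbouring tissues were followed in the same libraries. Of 13 skeletal muscle genes tested 1 rose, the myosin light chain Myl1, at 2.75, 2.48 and 2.25 CPM in the PBS libraries and 10.1, 10.3 and 12.2 CPM in the PD fluid libraries, and the list summed to 60.3 to 71.8 CPM in PBS and 47.7 to 64.0 CPM in PD fluid. Without PBS replicate 3 the troponin Tnnt3 fell as well (-2.02). Pancreatic acinar genes summed to 633, 598 and 31936 CPM in the PBS libraries and 181, 4004 and 4774 CPM in the PD fluid libraries, and none of 14 passed. PBS replicate 3 set the direction: the list's median log2 fold change was -2.43 with it and 2.26 without it. The intestinal list summed to 26.3, 29.4 and 2892 CPM in the PBS libraries and 29.5, 37.4 and 36.9 CPM in the PD fluid libraries. None of 16 passed, with a median of -7.99, and without PBS replicate 3 the median was -0.37 and 1 gene, the lectin Lgals4, rose (1.04). Tnnt3 and Lgals4 were chosen after their values were seen. Of 16 liver genes 2 rose: the cytochrome Cyp2e1, at 1521, 1511 and 1383 CPM in the PBS libraries and 3337, 4854 and 4986 CPM in the PD fluid libraries, and Alb, the defining liver transcript, at 0.188, 0.242 and 0.491 CPM in the PBS libraries and 2.17, 0.805 and 1.36 CPM in the PD fluid libraries, near 0 in all 6 libraries. The part of these tissues in the results above was not tested.

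Responses in Mr1-/- mice were set beside those in Mr1+/+ with a test of the difference. Mr1 was at 2.45 and 1.96 CPM in the Mr1-/- PBS libraries and 2.41 and 2.25 CPM with PD fluid, below every Mr1+/+ library. No gene passed the edgeR test of the genotype by PD fluid interaction (lowest adjusted p = 0.2658; 2037 genes, 13.2%, at an unadjusted p under 0.05), while DESeq2 called 472 (3.07%). Mr1-/- with PD fluid counted as 1 sample, assumed to vary like the other groups. Hp was at 221 and 172 CPM in Mr1-/- PBS and 230.2 and 235 CPM with PD fluid, a log2 fold change of 0.24 against 3.58 in Mr1+/+. Alb, near 0 in Mr1+/+, was at 105 and 64.1 CPM in Mr1-/- PBS and 105 and 108 CPM with PD fluid. Pancreatic acinar genes summed to 813 and 343 CPM and 6449 and 6575 CPM in the same libraries. The part of liver or pancreatic RNA in the Mr1-/- levels was not tested. Cfd was at 2066 and 1527 CPM and 1501 and 1544 CPM (-0.24 against 1.89), and Pax5 at 345 and 312 CPM and 355 and 364 CPM (0.13 against -1.62). For Cd163, at 25.8 and 19.8 CPM and 73.8 and 75.7 CPM, the changes were 1.71 and 1.69.

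List medians in Mr1-/- were 0.05 for adipocyte genes (1.58 in Mr1+/+), 0.50 for collagen chains (1.29), 0.04 for B cell genes (-1.001) and -0.22 for replication genes (-0.99). Not all lists were nearer 0 in Mr1-/-. Its median was 0.97 for mesothelial genes (0.79 in Mr1+/+) and 0.76 for lymphatic endothelial markers (0.32). For resident and alternatively activated macrophage genes it was 0.82 (1.28). Adipocyte genes summed to 10030.1 to 15034 CPM in the 4 Mr1-/- libraries, above all Mr1+/+ PBS libraries and below all Mr1+/+ PD fluid libraries. Since no gene passed the interaction test, no response above is called particular to Mr1+/+, and the missing calls do not show that the responses were alike.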

How the data were processed

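Poly-A RNA of mouse peritoneum was sequenced per the labels' protocols, which name no strand-marking step and no molecular identifiers, so overlapping antisense genes and PCR copies cannot be separated. The deposited table holds raw whole-number counts for each gene symbol. According to the submitters' processing notes, mm10 was the build. No aligner, counter or annotation is given in the sources used here. The 21899 rows gave 21877 symbols after repeated symbols were summed, and all 10 columns were used (0 left out). Near-identical libraries within a group were summed, which left 8 samples of 4 groups. Depth was 14145635 to 16335799 counts per library.

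Genes kept by filterByExpr were TMM-scaled and tested with edgeR 4.0.16 in R 4.3.3 (quasi-likelihood F tests, robust, no covariates, 4 residual degrees of freedom), with Benjamini-Hochberg adjustment over all tested genes. Levels are CPM on TMM library sizes. SE is that of the log2 fold change, derived from its F statistic. On simulated counts for 15141 genes the fit recovered 27% of 100 genes changed 2-fold and 71% of 100 changed 4-fold for this comparison. Of its calls 10.1% were unchanged genes. Only those genes were changed in the simulation, all others had the same mean in every group, and no library stood apart. The data differ in these points, so the simulated shares need not hold for them. DESeq2 1.42.0, other scalings and filters, separate libraries, a replicate block and left-out libraries were the alternatives.

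The 55 gene lists (933 genes) and the comparison itself were chosen with earlier results of these data known, so list counts support nothing independently. Named genes are up to 15 largest rises and falls (called with and without Mr1+/+ PBS replicate 3, mean of at least 5 CPM, no overlap of libraries, no predicted symbol), up to 5 called per list and direction by p and up to 2 not called with the highest CPM, 16 fixed genes, and per direction the 10 with the smallest p on no list. Marker genes of cell types were fixed with the lists. Scd1, the promoter genes Bub1b and Cdc20, and genes named because a call ended without a library were chosen after their values were seen. Gene positions are from GENCODE M21 (97.3% of symbols matched) and promoters from RefSeq on GRCm38.p6. Some genes that the naming rule picks are not reported here.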

Additional observations from a re-analysis of the deposited data

How the results depend on the processing

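Against 1306 rises and 980 falls, DESeq2 called 1878 and 1902, the 10 libraries as separate samples 2842 and 2707, and the 6 Mr1+/+ libraries as separate samples with no block, a fit chosen after seeing the data, 2493 and 2279. With a replicate block on those 6 libraries the counts were 2253 and 1973. Same-numbered libraries of the treatments deviated together with correlations of 0.092, -0.082 and 0.070, and not every library correlated best with its own number. PBS replicates 1 and 2 are near-identical, so these deviations cannot decide whether the numbers pair the samples. Leaving out 1 Mr1+/+ library at a time gave 0 to 1462 rises and 0 to 1289 falls, lowest without PD fluid replicate 3 and next lowest (252 and 87) without replicate 2. These fits hold fewer samples, as does the fit without PD fluid replicate 1 (1352 and 799). Within PD fluid, the chi-square per gene was 18.6 for replicates 2 and 3. It was 47.0 and 46.1 for replicate 1 against replicates 2 and 3. The cause was not tested further. DESeq2 called 472 genes for the interaction and the 10 separate libraries 1490, against 0 in the other fits that held Mr1-/- samples. Scaling and filter settings (RLE, upper quartile, total counts, no filter, 1 CPM, no robust shrinkage, Mr1+/+ samples alone) stayed within 1.5 times of both counts. With total counts the median of all genes was -0.11 on the log2 scale, against -0.057 with TMM.

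Of 250 genes named, 17 lost their call without PBS replicate 3 and 6 gained one. Uncalled genes that changed sign when 1 library was left out ranged as follows (log2). Ccl2 (-0.0025 without PBS replicate 3), Cdh1 and Cxcl12 ran over -0.0025 to 0.65, -4.91 to 0.43 and -0.12 to 0.11, Pnlip over -3.07 to 2.25 and Lgals4 over -3.17 to 1.04, all 5 reversed without PBS replicate 3. Msln ran over -0.15 to 1.06, reversed without PD fluid replicate 1. Tef ran over -0.58 to 0.083, above 0 without PD fluid replicate 2 or 3. Jchain ran over -0.20 to 0.11 and was 0.020 with upper-quartile scaling. Depth limits genes under about 1 CPM, such as Il6, and the 5 Mr1+/+ samples limit the precision of every fold change.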

Other observations

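The genes with the smallest p for the genotype by PD fluid interaction were looked up after their values were seen, and none of them passed (edgeR adjusted p = 0.2658 or more). Cytl1 was at 24.9, 23.3 and 24.9 CPM in the Mr1+/+ PD fluid libraries and at 16.2 and 15.2 CPM in the Mr1-/- PBS and 8.54 and 11.3 CPM in the Mr1-/- PD fluid libraries, and its log2 fold changes were 1.63 in Mr1+/+ and -0.67 in Mr1-/-. Car5b was at 96.1 and 91.3 CPM in Mr1-/- PBS and 107 and 111 CPM in Mr1-/- PD fluid (1.72 in Mr1+/+ and 0.22 in Mr1-/-). The lymph node venule ligand Glycam1 stood at 86.0 and 117 CPM and 44.5 and 47.0 CPM in the same libraries (1.08 in Mr1+/+ and -1.15 in Mr1-/-). The peroxidase Gpx3 had log2 fold changes of 1.33 in Mr1+/+ and -0.21 in Mr1-/-, tissue factor (F3) of 1.39 in Mr1+/+ and -0.21 in Mr1-/-, Phlda3 of 1.53 in Mr1+/+ and -0.14 in Mr1-/-, Vipr1 of -2.18 in Mr1+/+ and 0.20 in Mr1-/- and Smad7 of -1.18 in Mr1+/+ and 0.26 in Mr1-/-. Of these 8 genes, Vipr1 and Smad7 fell and the others rose in Mr1+/+, and Mr1-/- with PD fluid is 1 sample.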
